A study of Homo sapiens with 4 samples.

Results

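Ephrins and Eph receptors were read in human lung adenocarcinoma cells on 4 one-colour Affymetrix arrays. The family was represented by 9 listed genes: the ephrin-A ligands EFNA1, EFNA4 and EFNA5, the ephrin-B ligands EFNB1 and EFNB2, the EphA receptors EPHA2 and EPHA4, and the EphB receptors EPHB2 and EPHB4. A probe set, a group of short probes against one transcript, was taken where the platform annotation gave it 1 of these genes as its only symbol. That rule found 17 probe sets for 8 of the 9 genes, out of 54675 probe sets and 19740 named genes on the array. EPHB2 was not analysed here. The genes were chosen on signals and ratios from these same arrays, so their values are a description.

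Each of 4 groups had 1 array. CL1-5 cells carried a short hairpin against PSAT1 or, as their control, a non-silencing hairpin. CL1-0 cells carried a PSAT1 expression vector or, as their control, an empty vector. All 4 were stably transduced and had been under puromycin for 2 weeks, per the labels, and the sources used here do not say whether a line was 1 clone or a pool. CL1-5 is the more invasive line, selected out of CL1-0, and PSAT1 is the aminotransferase of serine synthesis. The study asked how expression changed when PSAT1 was raised in CL1-0 or lowered in CL1-5.

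Eph receptors are receptor tyrosine kinases whose ligands, the ephrins, sit on the membrane of neighbouring cells, so that both are read by cells in contact. Ephrin-A ligands are held by a lipid anchor and mostly bind EphA receptors, and ephrin-B ligands span the membrane and mostly bind EphB receptors, while EPHA4 binds both kinds. Binding starts forward signalling in the receptor cell and reverse signalling in the ligand cell, and through small GTPases it often makes cells round up, part or move. EPHA2 is widely found on lung carcinoma cells, where EFNA1 is its main ligand.

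The values are MAS5 signals, the authors' linear intensities for each probe set. Signals at or below 49.0, the median over all arrays, were set to that floor, and a gene was taken as measured in a comparison when either array exceeded it. A gene with several probe sets was represented by the brightest. With 1 array a group there was no replicate and no test, so "rose", "fell", "higher" and "lower" below mean 2-fold or more between 2 arrays, and a fold is written "at least" where the dimmer array was at the floor. The nearest thing to an error was how far probe sets of one gene differed in log2 ratio, with an SD of 0.18 for the CL1-5 pair, 0.29 for the CL1-0 pair and 0.51 for the lines. That spread may also hold differences between transcripts of a gene, and it holds none of the variation between cultures. Signals of different probe sets are not comparable with each other.

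EFNA5 and EFNA1 were the listed genes past 2-fold in some comparison as deposited, and EFNA4 lies near EFNA1. The 250 bases before the transcription starts of these ephrin-A ligands are shown so that they can be read beside the signals. They come from RefSeq on GRCh38.p14 and run 5′ to 3′ on the strand of the gene. Capitals mark GC boxes (GGGCGG or CCGCCC), the site bound by SP family factors, and CCAAT boxes (CCAAT or ATTGG). EFNA5 lies on the minus strand of chromosome 5, and its window is chr5:107670938-107671187. EFNA1 and EFNA4 lie on the plus strand of chromosome 1 in a stretch of 71.2 kb that spans both genes, with windows at chr1:155127626-155127875 and chr1:155063490-155063739.
EFNA5: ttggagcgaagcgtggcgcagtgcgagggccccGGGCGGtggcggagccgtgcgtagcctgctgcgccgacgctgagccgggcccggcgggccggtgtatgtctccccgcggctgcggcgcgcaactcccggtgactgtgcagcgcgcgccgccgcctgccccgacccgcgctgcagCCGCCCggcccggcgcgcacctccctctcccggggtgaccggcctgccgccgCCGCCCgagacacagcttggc
EFNA1: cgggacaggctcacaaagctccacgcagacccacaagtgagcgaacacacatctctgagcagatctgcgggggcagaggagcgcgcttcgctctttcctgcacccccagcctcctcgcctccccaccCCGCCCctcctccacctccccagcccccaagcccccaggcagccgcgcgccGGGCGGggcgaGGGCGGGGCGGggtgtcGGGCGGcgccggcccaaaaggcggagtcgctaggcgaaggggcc
EFNA4: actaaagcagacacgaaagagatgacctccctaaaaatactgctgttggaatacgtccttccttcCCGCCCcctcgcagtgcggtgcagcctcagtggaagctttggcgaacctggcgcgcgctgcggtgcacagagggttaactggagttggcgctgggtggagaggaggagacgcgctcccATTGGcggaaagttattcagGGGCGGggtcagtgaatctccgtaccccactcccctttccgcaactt

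The EFNA5 window was 79.6% G and C, the EFNA1 window 73.2% and the EFNA4 window 58.4%, against a median of 58.0% over 35116 windows of the same length. GC boxes numbered 3 before EFNA5, 5 before EFNA1 (a neighbouring pair of which share 1 base) and 2 before EFNA4, and 42.6% of all windows held at least 1. The CCAAT box was matched once, before EFNA4, and 32% of all windows held it. On both strands, none of the 3 windows held TATAAA (10.7% of all windows), the E-box CACGTG (6.34%) or the AP-1 letters TGANTCA (6.57%). These matches are letters and not sites of binding.

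PSAT1 itself was read first. In CL1-5 its brighter probe set had a signal of 143 under the hairpin, against 1760 under the non-silencing hairpin, and so fell 12.3-fold. In CL1-0 it had 5494 with the PSAT1 vector against 4214 with the empty vector, a log2 ratio of 0.38 that is under 2-fold. The other probe set gave 0.10 in CL1-0 and fell 3.58-fold in CL1-5. The cells are labelled as alveolar type II. Of 10 markers of that type with a named probe set, 8 were above the floor on each array, surfactant proteins B and C among them at signals from 106 to 191, while SFTPD and SLC34A2 were at the floor on all 4. The floor was exceeded by 48.0% to 52.0% of all probe sets, depending on the array. NAPSA read 62.3 to 67.9 and NKX2-1 63.1 to 90.5, not far above it. No immune marker of 4 was above it. Of 7 epithelial markers the keratins KRT8 and KRT18 were above it on all 4 arrays and CLDN4 on 3, while CDH1, EPCAM, KRT19 and ESRP1 were below it on all. Of 5 endothelial markers PECAM1 was above it on all arrays, at 54.3 to 150.0, and CDH5 and KDR on none, and of 8 fibroblast markers 2 to 4 were above it. In CL1-0 the collagen COL3A1 read 27.4 with PSAT1 against 312 with vector, and the claudin CLDN4 29.7 against 112, and the part of such shifts in the results below was not tested.

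Of the 17 ephrin and Eph receptor probe sets, 7 were above the floor on all 4 arrays, 5 on some and 5 on none. EFNA5 stood apart from the other listed genes: it fell both with the PSAT1 hairpin in CL1-5 and with the PSAT1 vector in CL1-0. It was also higher in the CL1-5 control than in the CL1-0 control. Neither fall reached 2-fold under every alternative processing, as described below. None of the other 7 genes reached 2-fold within a line where it was measured. Outside the list, EPHA3 fell and EFNA2 rose in CL1-0, as also given below.

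**Figure D1:**
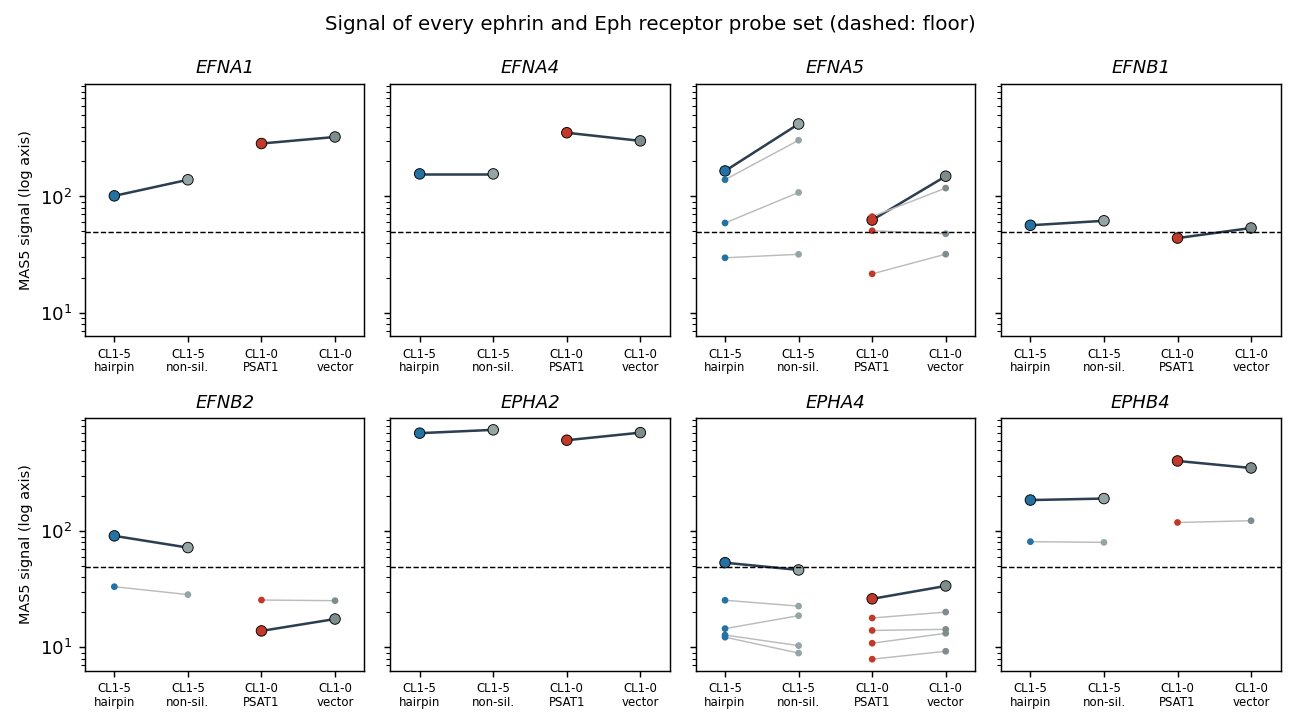
MAS5 signal (log axis) of every probe set of 8 genes on 4 arrays, with each line's PSAT1 construct to the left of its control and lines joining the arrays of a cell line. Large outlined points are the probe set that represents the gene, small points are its other probe sets, and the dashed line is the floor of 49.0. The large points of EFNA5 sit lower on the left of each pair, and EPHA2 runs from 607 to 746 on the deposited scales.

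EFNA5, ephrin-A5, guides axons and cell sorting through EphA receptors. Its brightest probe set had a signal of 166 with the PSAT1 hairpin and 421 with the non-silencing hairpin in CL1-5, and 62.7 with the PSAT1 vector and 149 with the empty vector in CL1-0. The CL1-5 control was therefore the highest of the 4 arrays and CL1-0 with PSAT1 the lowest, with 6.72-fold between them on the deposited scales. Since these differ between the lines, as described below, the same span was 9.66-fold with quantile normalization and at least 10.5-fold with median centring, in the same order of arrays. With the hairpin the fall was 2.54-fold (log2 ratio -1.34), the 28th lowest of 12821 measured genes. With the PSAT1 vector it was 2.39-fold (log2 ratio -1.25), the 83rd lowest of 13187.

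EFNA5 had 3 other probe sets. The second read 139.5 under the hairpin and 305 under the non-silencing one, a 2.18-fold fall, and 67.1 with PSAT1 against 118 with vector, a log2 ratio of -0.81. The third read 59.1 against 108 in the CL1-5 pair (log2 ratio -0.87), and both CL1-0 arrays were at the floor, with 21.6 and 31.85. The fourth read 29.65 and 31.8 in CL1-5, below the floor, and 50.7 with PSAT1 against 47.8 with vector in CL1-0. All 3 probe sets that measured EFNA5 in CL1-5 were thus lower in signal with the hairpin, and 2 of them reached 2-fold. In CL1-0, 1 of the 3 that measured it reached 2-fold, and the fourth gave a bound on the log2 ratio of 0.05, its vector array being below the floor.

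The fall of EFNA5 in CL1-0 depended on how the gene was read. The log2 ratio was -0.51 with the mean over its probe sets, -0.81 when probe sets that may match several transcripts were left out, and -0.56, as a bound, with the floor raised to 101. In CL1-5 the log2 ratio was -0.84 with the mean over probe sets and from -1.13 to -1.39 under the other 6 alternatives, all of which kept it beyond 2-fold.

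In the CL1-5 pair, 8 of the listed genes were measured, and EFNA5 was the 1 that fell, where 0.421% of all measured genes fell 2-fold. No member rose, against 0.398% of all genes. The median log2 ratio of the 8 was -0.07, and that of all genes was 0.02. In the CL1-0 pair, 6 were measured, 1 fell and none rose, where 1.01% of all genes fell and 2.56% rose, and the median of the 6 was -0.16 against -0.01 over all genes. Over probe sets, 2 of 11 fell in CL1-5, both of EFNA5, where 0.432% of named probe sets did, and 1 of 9 fell in CL1-0, where 0.936% did. Since the genes were chosen on these arrays, nothing is read from these counts.

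Across both pairs, which share no array, 11941 genes were measured in each, and 2 of them (0.0167%) fell in both, EFNA5 and NFKBIZ. NFKBIZ, an inhibitor-like regulator of NF-kB, is named after its values were seen, with log2 ratios of -1.05 with the hairpin and -1.51 with the PSAT1 vector. The same number, 2, rose in both. The constructs were meant to move PSAT1 in opposite directions, and 11 genes (0.0921%) fell with PSAT1 in CL1-0 and rose with the hairpin in CL1-5, while 2 rose with PSAT1 and fell with the hairpin. The number falling in both ran from 0 to 6 over 7 alternatives chosen after seeing the data. EFNA5 was among them under quantile normalization, median centring, the lower floor and no floor. It was not among them with the higher floor, with the mean over probe sets or without multi-transcript probe sets.

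**Figure D2:**
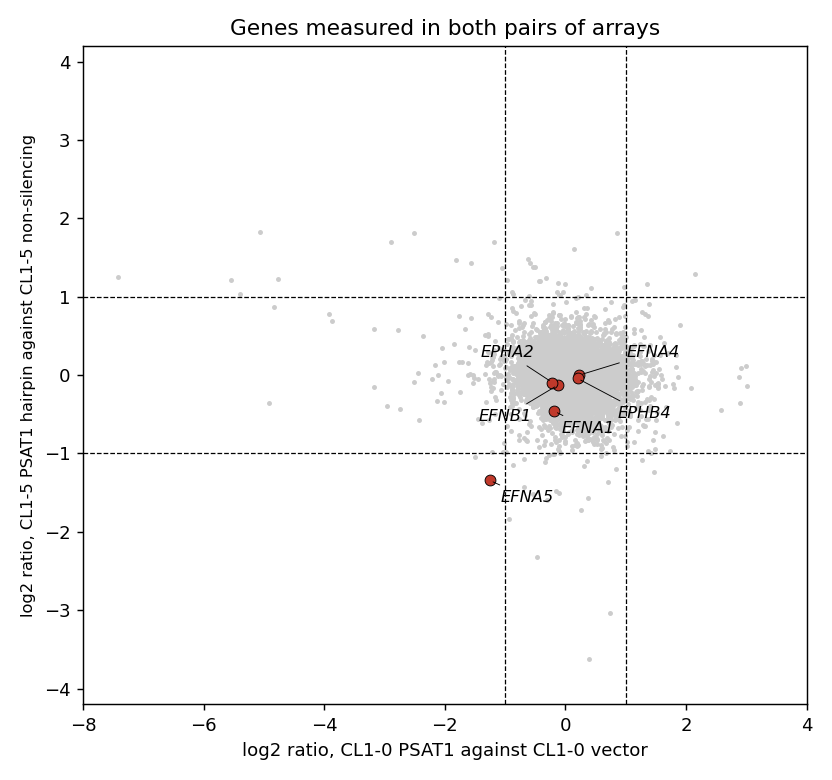
Each grey point is 1 of 11941 genes, placed by its log2 ratio for CL1-0 with PSAT1 against empty vector (x axis) and for CL1-5 with the PSAT1 hairpin against the non-silencing hairpin (y axis). Red points are the 6 listed ephrins and Eph receptors measured in both pairs and dashed lines mark 2-fold. EFNA5 lies at -1.25 and -1.34, beyond both lines, and the other 5 lie inside them.

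EFNA1, ephrin-A1, was first found as a gene induced by tumour necrosis factor. Its 1 probe set read 101 with the hairpin and 139 with the non-silencing control in CL1-5, and 286 with PSAT1 and 325 with empty vector in CL1-0. Both construct arrays were dimmer than their controls, and both CL1-5 arrays were dimmer than both CL1-0 arrays. The log2 ratio with the hairpin was -0.46, under 2-fold, and 4.13% of measured genes had a lower one. With PSAT1 it was -0.19, inside the SD of 0.29 between probe sets.

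EFNA4, ephrin-A4, is encoded near EFNA1. Its 1 probe set read 156 on each CL1-5 array, the same value in every deposited digit, and 354 with PSAT1 against 301 with vector in CL1-0, a log2 ratio of 0.23. The reference also lists a read-through transcript of EFNA4 and EFNA3, and whether this probe set also reads it was not tested. Identical readings were not rare: 1749 probe sets had the same value on both CL1-5 arrays and 1260 on both CL1-0 arrays, while 0 did between the control arrays of the lines. The log2 ratio of 0 for EFNA4 in CL1-5 therefore says little of how close the samples were.

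The ephrin-B ligands were dim. EFNB1, whose loss disturbs the skull sutures in humans, read 56.5 with the hairpin and 61.7 with the non-silencing control in CL1-5, and 43.8 with PSAT1 and 53.5 with vector in CL1-0. All 4 signals lay near the floor of 49.0, with a log2 ratio of -0.13 in CL1-5. In CL1-0 the fold was at least 1.09, since the PSAT1 array was below the floor. EFNB2, the ligand of EPHB4 in vessel formation, was above the floor in CL1-5 alone, at 91.2 with the hairpin and 72.3 with the control (log2 ratio 0.34), and 13.9 and 17.5 with PSAT1 and vector in CL1-0. Its second probe set was below the floor on every array, with signals from 25.2 to 33.3.

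Among the receptors, EPHA2, which can drive cell movement when no ligand is bound, was above the floor on all arrays. It read 698 with the hairpin and 746 with the control in CL1-5, and 607 with PSAT1 and 706 with vector in CL1-0. The log2 ratios of -0.09 and -0.22 were inside the SD between probe sets of each pair. The highest array was 1.23-fold over the lowest as deposited, and 2.04-fold with quantile normalization. EPHB4 read 185 with the hairpin and 191 with the control, and 403 with PSAT1 and 350.2 with vector. Its log2 ratios were -0.04 and 0.20, and its second probe set, at 81.3 and 80.1 in CL1-5 and 119 and 123 in CL1-0, gave 0.02 and -0.05. The probe sets of EPHB4 thus had opposite signs in each pair, all inside the SD.

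EPHA4 was barely measured. Its brightest probe set read 53.6 with the hairpin, the 1 value above the floor, 46.4 with the non-silencing control, 26.2 with PSAT1 and 33.8 with vector. The other 4 probe sets read from 7.91 to 25.4 on all arrays, so no level of EPHA4 can be given for these cells beyond that bound.

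Between the lines, the CL1-5 control was set against the CL1-0 control. These arrays also serve as the controls above, so this comparison is not independent of them. The median log2 ratio over 13720 measured genes was -0.49, and 24.8% of genes were lower in CL1-5 and 5.25% higher. Quantile normalization and median centring brought that median to 0.00 and 0.09. Under quantile normalization 8.91% of genes were lower and 9.54% higher, so the share of calls that were higher was 51.7%, against 17.5% as deposited. Whether the authors normalized the lines separately is not known here, and the values shared within lines but not between them, given above, leave the deposited scales of the lines without a known relation. Differences between the lines are therefore also given relative to the median of all genes or under the other scalings.

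EFNA5 was higher in CL1-5 by 2.82-fold as deposited (log2 ratio 1.49), which is 1.98 above the median of all genes. Its next 2 probe sets in brightness gave log2 ratios of 1.37 and, as a bound, 1.14, and under the alternatives the gene ran from 1.0012 to 2.11. EFNA1 was lower in CL1-5 by 2.34-fold (log2 ratio -1.22), or -0.74 relative to all genes. It was under 2-fold with quantile normalization (-0.71) and median centring (-0.61), and 17.2% of all genes had a lower ratio. EFNA4 and EPHB4 were just under 2-fold with -0.94 and -0.87, or -0.46 and -0.39 relative to all genes. With quantile normalization they had -0.42 and -0.32, and with median centring -0.33 and -0.26. Apart from the deposited values, all of these lay inside the SD of 0.51 between probe sets.

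EPHA2 had a log2 ratio of 0.08 as deposited, 0.57 relative to all genes and 0.79 with quantile normalization. EFNB1 had 0.21 as deposited and 0.69 relative to all genes. EFNB2 was at least 1.47-fold brighter in CL1-5 against the floor (72.3 against 17.5), a bound of 1.05 on the log2 ratio relative to all genes, 0.73 with quantile normalization and 0.85 with median centring. Of 7 listed genes measured, 1 was higher and 1 lower as deposited, where 5.25% and 24.8% of all genes were. The median log2 ratio of the 7 was 0.08 against -0.49 over all genes, which is 0.57 relative to all genes. Over probe sets, 3 of 10 were higher as deposited, all of EFNA5, where 4.81% of named probe sets were, and 1 was lower, where 23.4% were. Of 7 epithelial markers, the 3 measured were all higher in CL1-5, KRT18 with 5308 against 757 among them, and their part in these differences was not tested.

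**Figure D3:**
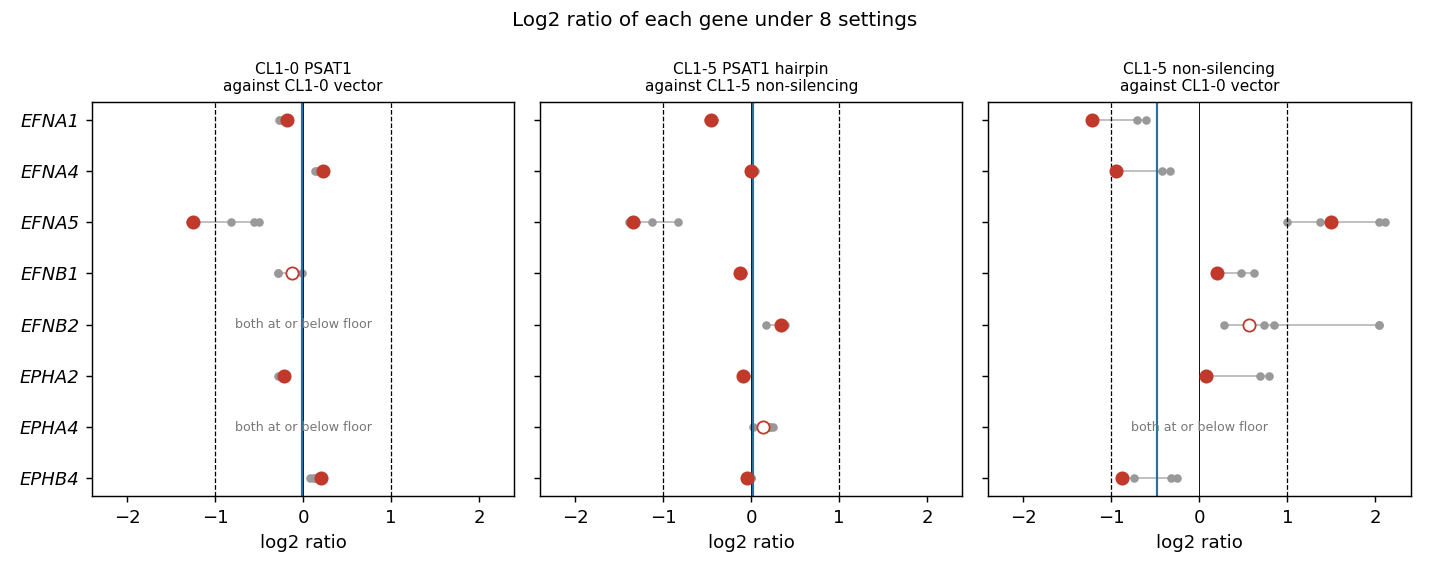
Log2 ratio (x axis) of each gene in 3 comparisons, with red points for the deposited scaling, open where the ratio is a bound, and grey points for 7 alternatives of scaling, floor and probe set choice. Dashed lines mark 2-fold and the blue line the median of all measured genes, which is -0.49 between the lines. EFNA5 is the 1 listed gene beyond 2-fold within a line, and between the lines its values run from 1.0012 to 2.11.

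The rest of the family, 13 other ephrin and Eph receptor genes, held 9 with a signal above the floor on at least 1 array. In the CL1-0 pair EFNA2, ephrin-A2, rose 2.401-fold, with 496 with PSAT1 against 206 with vector, and in CL1-5 it was at the floor with 29.8 and 22.1. The receptor EPHA3 fell at least 2.75-fold in CL1-0, with 25.4 with PSAT1 against 135 with vector, and was at the floor in CL1-5 with 6.21 and 5.95. Each call rests on 1 of 3 probe sets, the others being at the floor, and both held under the other scalings. The remaining 6 measured genes of that pair were under 2-fold, among them EFNB3 at 0.43 and EPHB6 at -0.37 as a bound. In the CL1-5 pair none of 6 reached 2-fold, and the log2 ratio of EPHA10 was 0.34.

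Between the lines 4 of 9 of these genes were lower in CL1-5 and none higher, where 24.8% of all genes were lower. The same 4 were lower with quantile normalization and median centring, where 8.91% and 8.59% of all genes were. EFNA2, EPHB1 and EPHA3 were below the floor in the CL1-5 control. They were measured only through the CL1-0 control and could not have come out higher. EPHA3 exceeded the floor on that 1 array alone, so its calls here and in the CL1-0 pair both rest on 1 reading of 135. EFNB3, an ephrin-B ligand of the nervous system, read 61.8 in CL1-5 against 326 in CL1-0, 5.27-fold lower, though its second probe set gave a log2 ratio of -0.23. Relative to all genes its log2 ratio was -1.91. EFNA2 was at least 4.21-fold lower, the receptor EPHB1 at least 4.03-fold (21.1 against 198) and EPHA3 at least 2.75-fold. The bounds on their log2 ratios were -1.59, -1.53 and -0.98 relative to all genes. A second probe set of EPHB1 read 42.6 against 85.4, a bound of -0.80 on the log2 ratio as deposited, short of 2-fold. The median of the 9 was -0.43 as deposited, against -0.49 over all genes, and -0.13 and 0.18 under the other scalings. The other 5 measured were EFNA3, EPHB3, EPHB6, EPHA10 and EPHA8, with log2 ratios from -0.43 to 0.01.

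**Figure D4:**
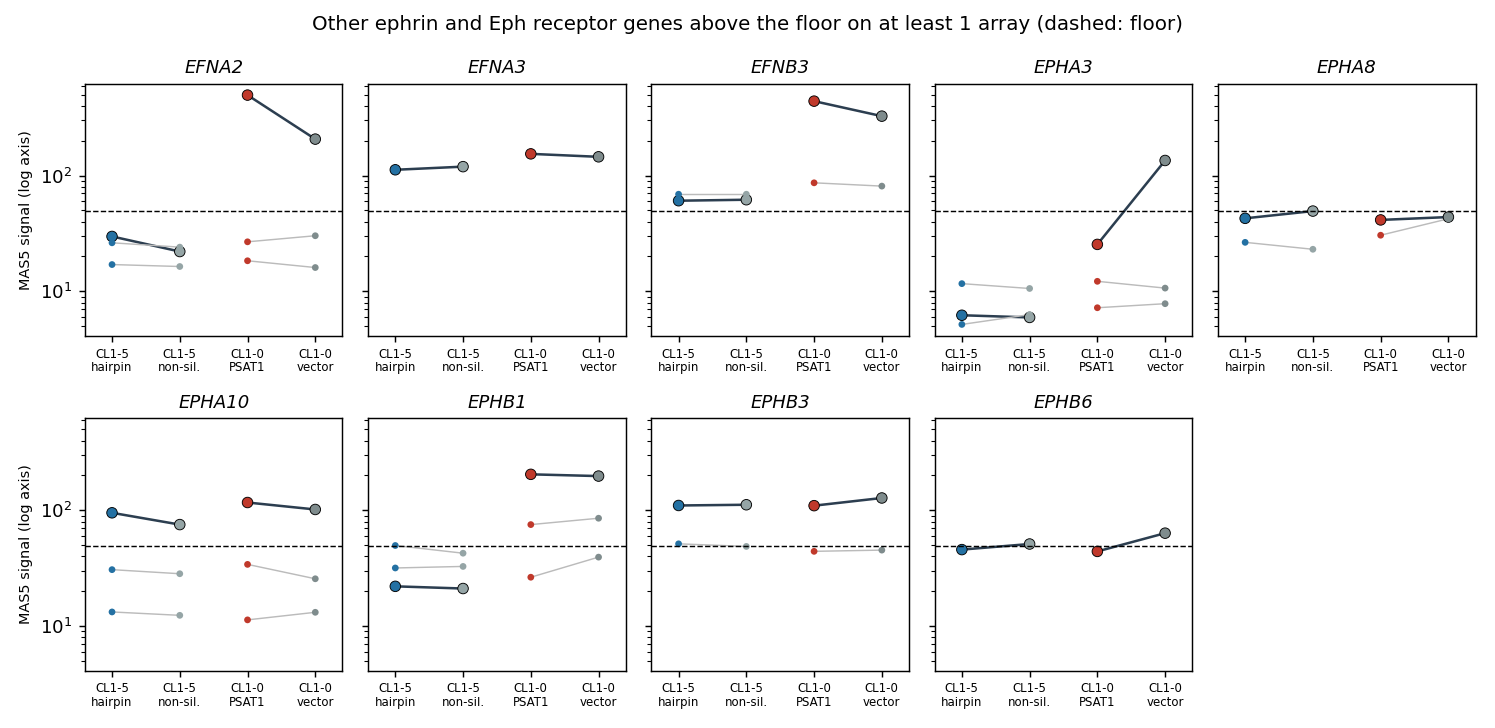
MAS5 signal (log axis) of 9 further family genes on 4 arrays, drawn as for the listed genes, with the floor of 49.0 dashed. EFNA2 is at 496 in CL1-0 with PSAT1 and 206 with empty vector and below the floor in CL1-5, and EFNB3 and EPHB1 are also brighter in CL1-0.

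Partners of the receptors were read from lists. Of 33 listed genes of forward signalling, which holds adaptors, kinases of the SRC and ABL families and exchange factors for small GTPases, 28 were measured in CL1-5 and 29 in CL1-0. None reached 2-fold in either pair, where 0.819% of all genes in CL1-5 and 3.56% in CL1-0 did, so the counts do not set the partners apart. The medians were -0.05 and 0.05, against 0.02 and -0.01 over all genes. Of 15 genes of ephrin reverse signalling and shedding, 12 were measured in each pair and none reached 2-fold. In CL1-5 the log2 ratio was negative for 9 of the 12 with a median of -0.24, and in CL1-0 also for 9, with a median of -0.07. Over all measured genes 46.3% were negative in CL1-5 and 51.6% in CL1-0. The list was chosen with earlier results of these data known, so nothing is read from these counts.

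Between the lines the sheddase MMP14, which cuts membrane proteins at the cell surface, was 7.47-fold higher in CL1-5, with 772 against 103, and its 3 other probe sets gave log2 ratios from 1.73 to 2.49. Relative to all genes the log2 ratio was 3.39. NCK1, an adaptor that couples tyrosine kinases to actin, was 3.56-fold lower (360 against 1282), and its 3 other probe sets had log2 ratios from -1.91 to -0.41. Relative to all genes it was -1.35. Both calls held under the other scalings. PTPN13, a phosphatase that binds ephrin-B tails, was 2.70-fold lower but under 2-fold with median centring (-0.82). VAV2 and TIAM1, exchange factors for RAC, had log2 ratios of -1.51 and -1.43 as deposited and -0.79 and -0.77 under quantile normalization. The other measured probe set gave 0.29 for VAV2 and -0.07 for TIAM1. PARD6A and APH1A had -1.24 and -1.22 as deposited and -0.82 and -0.50 under quantile normalization.

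The focal adhesion kinase gene PTK2 had a log2 ratio of 1.56 from its brightest probe set, 2.04 relative to all genes, but negative ones from the other 3. Of 28 forward signalling genes 2 were higher and 6 lower as deposited, where 5.25% and 24.8% of all genes were. Under quantile normalization 5 were higher and 1 lower, where 9.54% and 8.91% of all genes were. Of 12 reverse signalling and shedding genes 1 was higher and 4 lower as deposited, and 4 higher and 1 lower under quantile normalization. Both lists changed with the scaling as all genes did.

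The genes most like EFNA5 over the 4 arrays were taken by the smallest distance in log2 signal after centring each gene, among 9133 genes whose brightest array reached 212.6. They were AKR1C2, an aldo-keto reductase with near-identical relatives (distance 0.32), the laminin chain LAMB1 (0.41) and the cytoskeletal linker DST (0.51), where the median distance was 2.57. AKR1C2 read 157 with the hairpin and 310.1 with the control in CL1-5, and 55.6 with PSAT1 and 111 with vector in CL1-0. The most like EFNA1 were BCAT1, which transaminates branched-chain amino acids (0.07), METTL4 (0.08) and LARS2 (0.10), with a median of 0.90.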

How the data were processed

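The authors deposited 1 linear intensity per probe set and array, made with MAS5, per the submitters' processing notes. Its version, scaling target and detection calls are not given in the sources used here. Depth has no meaning for arrays, and their number, 4, limits the precision.

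From these values, 62 control probe sets were set aside. Signals below the pooled 50th percentile (49.0) were raised to it and log2 transformed. Probe sets took symbols from the platform annotation, 41097 with 1 gene, 1801 with several and 11777 with none listed, and 41043 were updated through RefSeq. Another 59 probe sets, Y-linked or for X inactivation, were not used. The ephrins and the lists were chosen with earlier results of these data known. Most genes named outside the list followed a rule: the other family genes above the floor, and up to 4 partners per list and comparison at 2-fold. It also took the 3 genes nearest to EFNA5 and EFNA1, which had the largest summed ratios. PSAT1, NFKBIZ and the single markers named were outside that rule, and NFKBIZ was named after its values were seen. No test was possible with 1 array a group. Alternatives were quantile normalization, median centring, floors at the 25th and 65th percentiles, no floor, the mean over probe sets, and leaving out multi-transcript probe sets. The steps were tested on simulated data. Python 3.11.15, numpy 2.4.6 and pandas 2.3.3 were used.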

Additional observations from a re-analysis of the deposited data

How the results depend on the processing

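No paired analysis was possible because each group had 1 array. With the deposited scaling 1 of the listed genes fell in each line's pair, EFNA5, where 1.01% of all genes fell in CL1-0 and 0.421% in CL1-5. In CL1-0 that count was 0 with the floor at the 65th percentile, with the mean over probe sets, without multi-transcript probe sets and at 3-fold. In CL1-5 it was 0 at 3-fold and when probe sets were averaged. Raising the floor to the higher percentile turns EFNA5 in CL1-0 into a bound, and averaging adds its probe sets at the floor. Between the lines, 1 listed gene was lower in CL1-5 as deposited and 3 at 1.5-fold, where 24.8% and 44.5% of all genes were. The count was 0 with quantile normalization, median centring and 3-fold, where 8.91%, 8.59% and 9.01% of all genes were lower. It thus moved with the share of all genes. The count higher in CL1-5 was 1 as deposited, 2 at the 25th percentile floor, 2 with no floor and 0 at 3-fold. The shares of all genes that were higher were 5.25%, 5.49%, 5.15% and 3.08%. The median log2 ratio of the listed genes between the lines was 0.08 as deposited, against -0.49 over all genes. With the floor at the 65th percentile, where 5 of them were measured, it was -0.87, against -0.58 over all genes. Genes falling in both pairs numbered 2 as deposited, 4 with median centring, 1 with the 65th percentile floor, 6 with no floor and 0 without multi-transcript probe sets. No called value changed sign. Over single genes, 120 alternative values moved by less than the SD between probe sets and 17 by more. Over all genes of the CL1-5 pair, 54 fell as deposited and 32 with the mean over probe sets. In the CL1-0 pair, 337 rose and 133 fell as deposited, 224 and 134 under quantile normalization, and 166 and 79 with the mean over probe sets.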
